A study of Rattus norvegicus with 8 samples.

Results

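In these rat lungs 9 genes, Gpr158, Gpm6a, C2cd2l, Fundc2, Vav3, Suv39h2, Slc17a6, Ptprv and Rnf43, were described on their own. They were chosen from the measured difference between lungs given extracellular vesicles and lungs given the stem cells that shed those vesicles, so that difference is a description here and was not tested. The 9 genes are among 16667 gene symbols matched to the array, and they are read by 10 probes, because C2cd2l has 2. All 10 probes passed the filter on dim probes, Slc17a6 and Rnf43 through the stem cell group alone. The study placed 8 one-colour arrays on lung RNA of male rats, 2 arrays in each of 4 groups. Naive rats breathed normal air. Smoke rats (CS) had 12 weeks of cigarette smoke in a chamber. The other two groups had the same smoke and then, in week 13, a single kind of treatment into the trachea: human umbilical cord mesenchymal stem cells (hUC-MSC, here MSCs) or the extracellular vesicles isolated from the same number of cells (hUC-MSC-EV, here EVs). All 3 smoke groups share the exposure, none of the labels names a smoke group given carrier alone, and strain and age are not stated in them. The labels do not say that the arrays of a group are separate animals, so p-values measure only the spread between these samples, which may be technical.

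The genes fall into a set brighter after EVs (Gpr158, Gpm6a, C2cd2l, Fundc2 and Vav3) and a set brighter after MSCs (Suv39h2, Slc17a6, Ptprv and Rnf43). Several belong to signalling at the cell surface. Gpr158 is an orphan-type class C receptor that holds regulators of G protein signalling at the membrane, Gpm6a is a neuronal membrane glycoprotein of the proteolipid family that shapes filopodia, and Vav3 is an exchange factor that switches on small GTPases below tyrosine kinases. C2cd2l moves phosphatidylinositol from the endoplasmic reticulum to the plasma membrane, and Fundc2 sits in the mitochondrial outer membrane. In the other set, Suv39h2 methylates histone H3 at lysine 9 and is known from testis and embryo, Slc17a6 loads glutamate into synaptic vesicles, Ptprv is a receptor-type tyrosine phosphatase known from osteoblasts and testis, and Rnf43 is a ubiquitin ligase that takes Frizzled receptors of Wnt proteins off the cell surface.

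Promoter windows were read for 8 of the 9 genes from RefSeq (build GRCr8), each running from 250 bases before the annotated start to 50 bases after it; C2cd2l had no entry. The 4 windows below are shown because they span the range of CG content and come from both sets: Gpr158 and Vav3 are brighter after EVs, Suv39h2 and Ptprv after MSCs. In the Gpr158 window the capitals mark the letters TTCAGCAC and GGACAGC, taken from the left and right parts of the element bound by REST, a repressor of neuronal genes. In the other windows the capitals mark every CG pair.
Gpr158 (chr17:88742573-88742872, plus strand): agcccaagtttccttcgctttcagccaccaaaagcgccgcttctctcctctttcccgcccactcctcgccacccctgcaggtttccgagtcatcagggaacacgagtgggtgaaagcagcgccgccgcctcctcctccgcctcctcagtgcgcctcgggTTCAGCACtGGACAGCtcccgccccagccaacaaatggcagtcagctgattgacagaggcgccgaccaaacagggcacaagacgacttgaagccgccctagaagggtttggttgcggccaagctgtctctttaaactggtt
Vav3 (chr2:199700528-199700827, plus strand): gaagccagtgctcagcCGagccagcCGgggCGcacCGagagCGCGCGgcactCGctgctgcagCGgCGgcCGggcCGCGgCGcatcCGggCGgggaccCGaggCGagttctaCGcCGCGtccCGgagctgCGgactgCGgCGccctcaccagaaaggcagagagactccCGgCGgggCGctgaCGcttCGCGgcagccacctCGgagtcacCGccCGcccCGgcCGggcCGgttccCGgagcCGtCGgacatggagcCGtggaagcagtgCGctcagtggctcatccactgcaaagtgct
Suv39h2 (chr17:79665217-79665516, plus strand): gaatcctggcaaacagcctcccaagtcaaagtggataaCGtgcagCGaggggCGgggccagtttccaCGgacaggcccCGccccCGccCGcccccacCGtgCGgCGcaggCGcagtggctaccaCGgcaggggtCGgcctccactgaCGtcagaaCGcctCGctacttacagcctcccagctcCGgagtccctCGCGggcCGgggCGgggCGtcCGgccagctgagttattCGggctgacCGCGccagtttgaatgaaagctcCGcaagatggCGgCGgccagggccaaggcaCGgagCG
Ptprv (chr13:49120072-49120371, minus strand): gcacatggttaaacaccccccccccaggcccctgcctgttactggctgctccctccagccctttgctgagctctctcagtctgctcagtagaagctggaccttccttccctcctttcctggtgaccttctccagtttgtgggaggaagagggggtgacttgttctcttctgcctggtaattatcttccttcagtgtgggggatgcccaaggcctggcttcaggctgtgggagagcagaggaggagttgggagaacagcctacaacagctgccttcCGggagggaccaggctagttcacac

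The count of CG pairs varied widely within each set. Vav3 holds 42 CG pairs, more than 97.6% of the 33469 promoter windows of this length, and Suv39h2 holds 31. Ptprv holds 1, and 5.47% of windows hold fewer; the median window holds 7. Gpm6a with 8, Slc17a6 with 11, Gpr158 with 19 and Fundc2 with 30 lie above that median, and Rnf43 with 4 lies below it. In Gpr158 the 2 marked stretches are 1 base apart and begin 91 bases before the start. In this order and within 12 bases of each other, 18 of all windows hold both on either strand. The search allowed any gap of up to 12 bases, so the match does not show a whole element. Whether REST binds these stretches at this spacing was not tested. These letters were searched after the sequence had been seen, and the match describes the sequence only. Of letters searched on both strands, GCGTG, the core of the xenobiotic response element, occurred in Fundc2 (4 times) and Gpm6a (once) and in 29.7% of all windows. TGACNNNGC, the antioxidant response letters, occurred in Suv39h2 and Slc17a6 and in 12.1% of all windows. The GC box GGGCGG occurred in Gpr158, Gpm6a, Vav3 and Suv39h2, against 33.1% of all windows.

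The level of a probe is its log2 processed signal (background-subtracted brightness) minus the 75th percentile of its array, so a level of 0 equals that percentile. The percentile itself differed between groups, with a geometric mean of 454 in naive, 2943 in smoke, 607 after EVs and 251 after MSCs. The added E1A control RNAs moved far less, between 0.833 and 1.15 times the naive signal. Differences between EVs and MSCs, and others where stated, are therefore also given scaled to those controls. The scalings differ for every probe by the same amount: the median of all 29612 probes tested was -0.56 in smoke minus naive on the percentile scale and 2.41 on the control scale, and -0.27 and 1.26 in EVs minus MSCs. Between 48.1% and 71.3% of probes were well above background on an array, replicates correlated at 0.951 to 0.979, and no spot was saturated. All arrays lay on 1 slide with each group in a column of its own, so slide column and group cannot be told apart. All 7 markers of alveolar type 2 cells measured were well above background on every array, as were all 7 of type 1 cells. Of 7 macrophage markers 5 and 4 were well above background on the MSC arrays, with Marco and Mrc1 on neither, against 7 and 4 on the naive arrays and 6 to 7 on the smoke and EV arrays. Of 8 mesothelium markers MSC replicate 1 had 6, without Wt1 and Aldh1a2, and the other arrays 7 to 8. The part of these cells in the differences was not tested. Heart muscle markers set 2 arrays apart: their summed level over 8 genes was 5.05 on EV replicate 1 and 6.22 on MSC replicate 2 against 0.42 to 1.71 elsewhere, with Ryr2 and Nppa not well above background on either.

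Gpr158 was the clearest member of the set brighter after EVs. Its level was -3.45 and -3.63 in naive lungs, -2.20 and -2.19 in smoke, -3.24 and -3.54 after EVs, and -7.00 and -7.12 after MSCs. The smoke arrays were highest, the naive and EV arrays overlapped, and the MSC arrays lay apart at the bottom without being well above background. In processed signal, before any scaling, this was 51.9 and 29.3 in naive, 705 and 588 in smoke, 80.4 and 41.6 after EVs, and 1.92 and 1.84 after MSCs.

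Gpm6a had the same order with a wider spread. Its level was -3.40 and -4.69 in naive, -2.52 and -3.86 in smoke, -2.99 and -3.46 after EVs, and -6.69 and -6.89 after MSCs. Naive, smoke and EV arrays overlapped, and the MSC arrays lay below all 6 of them. The probe was not well above background on naive replicate 2 or on either MSC array. It is spotted 10 times on each array, which gives the spread among spots within an array only, since these spots are not replicates of a group. The 10 spots ran from 79.2 to 106.7 in signal on EV replicate 1 and from 34.8 to 55.4 on EV replicate 2. On the MSC arrays they ran from 1.77 to 3.24 and 1.92 to 2.30. No spot of an MSC array reached the lowest spot of an EV array. The gap between the 2 naive arrays, with spots from 44.0 to 62.5 on replicate 1 and from 7.61 to 18.4 on replicate 2, was also wider than the spread among spots.

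**Figure D1:**
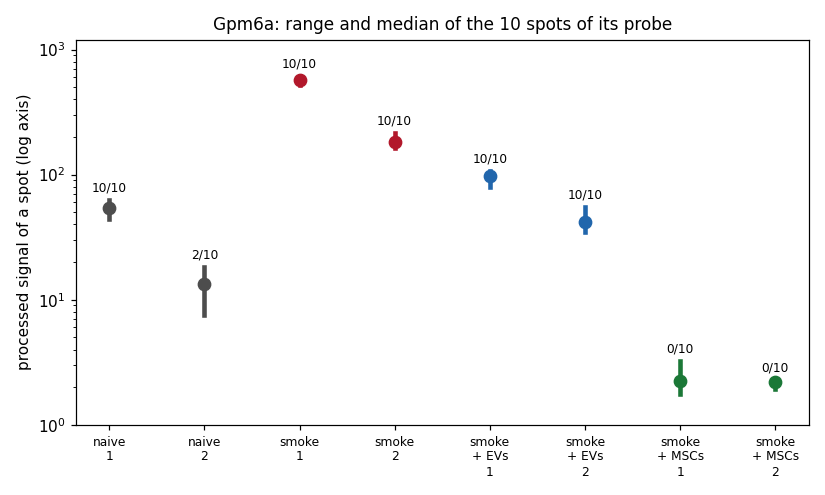
Processed signal of the 10 spots of the Gpm6a probe on each array (log axis); points are medians, bars run from the lowest to the highest spot, and numbers give the spots well above background. The medians are 2.23 and 2.18 on the MSC arrays against 97.2 and 42.0 on the EV arrays.

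C2cd2l was read by 2 probes that disagree on the percentile scale. The first, the brighter of them, had levels of -3.36 and -4.19 in naive, -2.42 and -2.70 in smoke, -3.16 and -3.52 after EVs, and -6.54 and -6.84 after MSCs. There the MSC arrays lay below all others and were not well above background. The second had levels of -5.99 and -5.12 in naive, -3.42 and -3.98 in smoke, -5.09 and -4.69 after EVs, and -4.59 and -5.59 after MSCs. It was well above background only on the smoke and EV arrays. Its EV and MSC arrays overlapped, so on this scale the difference that chose C2cd2l rests on 1 of its 2 probes. In signal before scaling the second probe did not overlap, at 22.4 and 18.7 after EVs against 10.2 and 5.33 after MSCs. Scaled to the E1A controls it was 1.74 log2 higher after EVs, again without overlap.

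Fundc2, a relative of the mitophagy receptor Fundc1, had levels of -3.61 and -3.26 in naive, -1.30 and -1.19 in smoke, -3.11 and -2.97 after EVs, and -6.73 and -5.86 after MSCs. Every smoke array was above every other array, and every MSC array below. For Vav3 the levels were -3.68 and -3.87 in naive, -1.06 and -1.33 in smoke, -3.48 and -3.60 after EVs, and -5.50 and -6.66 after MSCs. Both genes thus ran in the order smoke, EVs, naive, MSCs with no overlap between neighbours, although the EV and naive means of Vav3 differed by only 0.24 log2. Before scaling, Fundc2 gave 1313 and 1173 in smoke and 2.32 and 4.42 after MSCs, and Vav3 gave 1552 and 1063 against 5.43 and 2.53.

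Suv39h2 led the set brighter after MSCs. Its level was -2.51 and -2.29 in naive, -5.34 and -5.32 in smoke, -4.25 and -3.57 after EVs, and 0.25 and -1.004 after MSCs. The MSC arrays were highest and the smoke arrays lowest, with no overlap between any neighbouring groups. The signal before scaling ran differently: 100.005 and 73.8 in naive, 80.1 and 67.2 in smoke, 40.2 and 40.8 after EVs, and 293 and 128 after MSCs, so naive and smoke overlapped there while MSC arrays stayed highest and EV arrays lowest.

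Ptprv had levels of -1.65 and -0.88 in naive, -5.48 and -5.20 in smoke, -2.13 and -2.48 after EVs, and 1.61 and -0.16 after MSCs. No neighbouring groups overlapped, in the order MSCs, naive, EVs, smoke. Its signal before scaling was 749 and 230 after MSCs, 182 and 196 in naive, 174 and 86.5 after EVs, and 72.7 on each smoke array. The order held there as well, with a wide gap between the 2 MSC arrays.

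Slc17a6 and Rnf43 were dim throughout. Slc17a6 had levels of -5.60 and -4.84 in naive, -7.99 and -7.86 in smoke, -8.02 and -6.16 after EVs, and -4.63 and -2.86 after MSCs. Its signal was well above background on both MSC arrays (9.95 and 35.2) and on naive replicate 1, and on no smoke or EV array. Rnf43 had levels of -5.38 and -4.87 in naive, -6.73 and -7.01 in smoke, -6.20 and -5.73 after EVs, and -3.64 and -2.28 after MSCs. Both MSC arrays (signals of 19.7 and 52.9) and 1 array of each other group were well above background. In both genes MSC replicate 2 was brighter than replicate 1, the reverse of Suv39h2 and Ptprv.

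**Figure D2:**
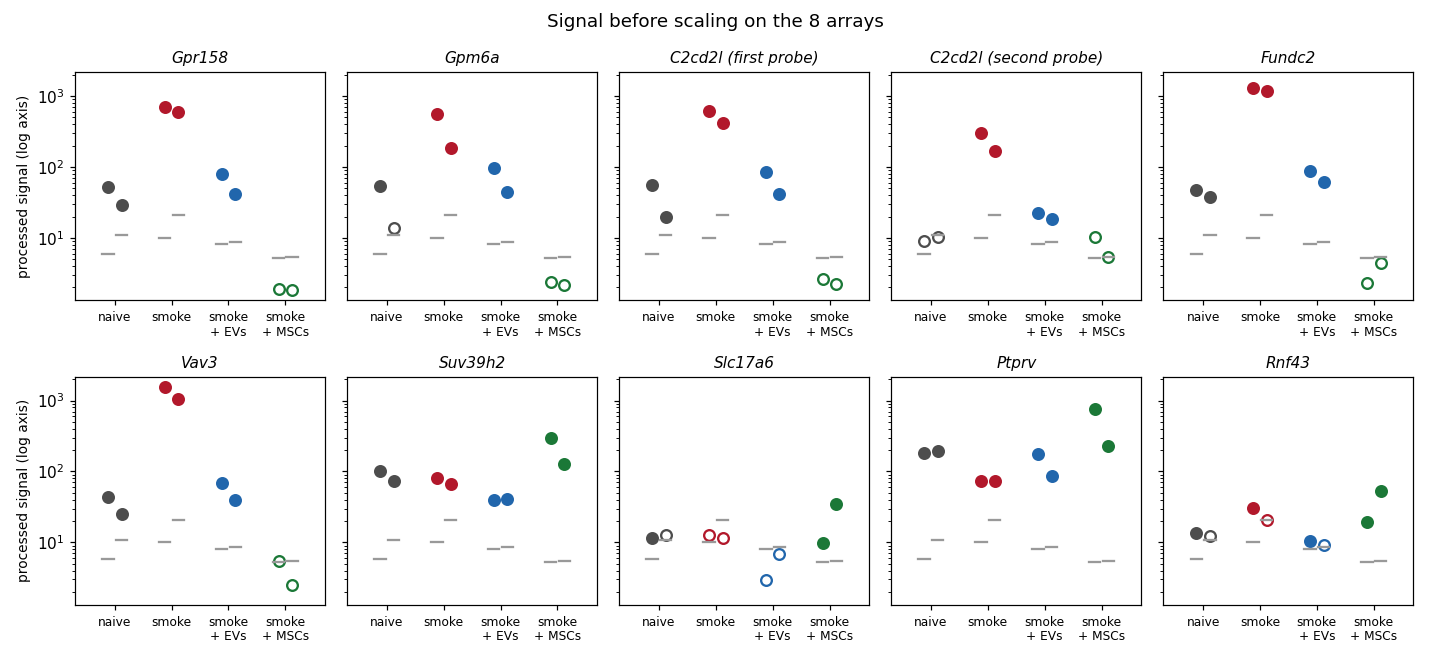
Processed signal of each probe before any scaling (vertical log axis) on the 2 arrays of each group; filled points are well above background, open points are not, and grey dashes mark the lowest signal well above background on that array. Gpr158 gives 705 and 588 on the smoke arrays and under 2 on both MSC arrays, while Suv39h2, Ptprv and Rnf43 are brighter on both MSC arrays than on either EV array.

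In the comparison of EVs with MSCs, which chose the genes and in which 5.85% of all probes passed the test, 9 of the 10 probes did not overlap between groups, against 60.9% of all probes tested; nothing is read from this count. Where a group is not well above background, a fold is given against a floor, on the percentile scale. The floor is the higher of the probe's own signal and the lowest signal well above background on each array. That limit differs between spots: it was 5.25 on MSC replicate 1, where the second C2cd2l probe was not well above background at 10.2. Folds marked at least, here and below, hold against this floor and are not strict bounds. Gpr158 was 3.67 log2 higher after EVs, at least 4.48-fold. Gpm6a was 3.56 higher (at least 5.03-fold), C2cd2l 3.35 by its first probe (at least 4.64-fold) and 0.20 by its second, Fundc2 3.25 (at least 5.71-fold) and Vav3 2.54 (at least 3.97-fold). The folds against the floor are smaller than the fitted folds, since these probes were not well above background on the MSC arrays.

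In the opposite direction, Suv39h2 was 11.6-fold higher after MSCs (-3.53 log2 in EVs minus MSCs), Ptprv 8.16-fold (-3.03), and Slc17a6 at least 5.39-fold (-3.34). Rnf43 differed by -3.00, with 1 of 2 EV arrays well above background. Scaled to the spike-in controls, the differences were 5.20 for Gpr158, 5.10 for Gpm6a, 4.79 for Fundc2 and 4.08 for Vav3. C2cd2l stood at 4.89 by its first probe and 1.74 by its second. In the other set the differences were -1.99 for Suv39h2, -1.80 for Slc17a6, -1.49 for Ptprv and -1.47 for Rnf43. No gene thus turned direction with this scaling, and the gap was wider for the first set and narrower for the second. The ranges that follow take C2cd2l by its first probe. Of the arrays with more heart muscle signal, leaving out EV replicate 1 put the first set at 2.48 (Vav3) to 3.52 (Gpr158). The other set stood at -2.41 (Slc17a6) to -3.20 (Ptprv), and the second C2cd2l probe at 0.40. Without MSC replicate 2 the sets were at 1.96 (Vav3) to 3.69 (Fundc2) and -2.32 (Rnf43) to -4.16 (Suv39h2), and the second C2cd2l probe turned to -0.30. With the normexp background model, which adds 50 signal units to each spot, the first set had differences of -0.04 (Gpm6a) to -0.28 (Vav3). The second C2cd2l probe was at -0.86 there. All probes of the first set thus turned direction, with signals of at most 96.0 after EVs.

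**Figure D3:**
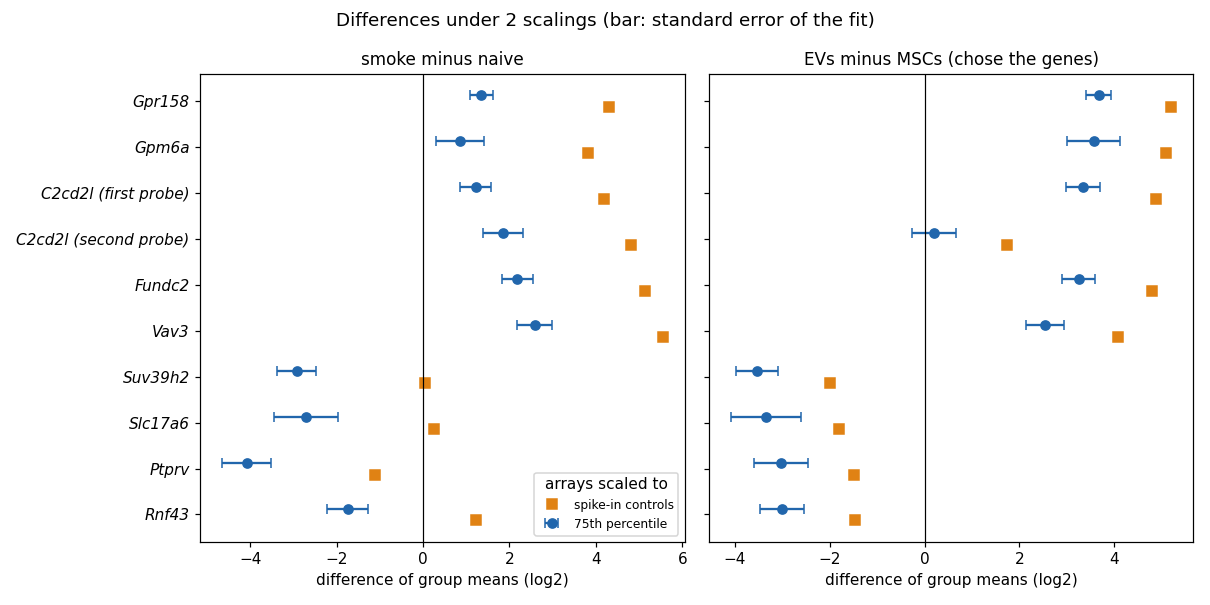
Difference of group means in log2 for each probe, smoke minus naive on the left and EVs minus MSCs on the right; circles with standard errors are scaled to the 75th percentile and squares to the spike-in controls. Suv39h2, Slc17a6 and Rnf43 are below 0 in smoke on the first scaling and at 0.04, 0.25 and 1.22 on the second, whereas the right side keeps its directions.

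All 6 probes of the first set lacked a signal well above background on both MSC arrays. The shares that follow describe the arrays and were not used as a test. Of the 26208 probes well above background on both EV arrays, 6.24% were on neither MSC array, and of the 8012 among them with an EV level in the range of these 6 probes, 8.30% were. Gpr158, Fundc2, Vav3 and the first C2cd2l probe were well above background on all 6 other arrays; of the 20961 probes of that kind, 1.05% (221) were missing from both MSC arrays. The median pixel of their spots on MSC arrays was 1.32 to 1.69 times the local background, against 3.50 to 5.78 times on EV arrays. In lung tissue, fewer cells of a type and less RNA per cell cannot be told apart.

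Smoke against naive is the comparison that shares no array with the one that chose the genes. With smoke 5 probes of 4 genes rose and 4 genes fell on the percentile scale, 2 of these 4 on signals near background, while Gpm6a did not pass the test (0.86 ± 0.56 SE log2, adjusted p = 0.233 by limma, naive and smoke arrays overlapping). With the spike-in controls Gpm6a stood at 3.82 (adjusted p = 0.000305 by limma) without overlap, where the median of all probes was 2.41. On the percentile scale naive and smoke arrays did not overlap for 9 of the 10 probes, against 78.8% of all probes. Of all probes tested, 12.8% passed in the higher direction and 33.7% in the lower, 46.5% in all, and 27.5% of the calls were higher; with the spike-in scaling 99.4% were, and with quantile normalization 50%. On the percentile scale all 5 genes brighter after EVs than after MSCs had positive differences, and all 4 brighter after MSCs had negative ones. With the spike-in controls, Suv39h2, Slc17a6 and Rnf43 of these 4 stood at 0.04, 0.25 and 1.22. The share of all probes with matching directions was not counted, so nothing is read from this match.

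Vav3 rose most, by 2.58 ± 0.40 (SE) log2 or 5.98-fold (adjusted p = 0.00326 by limma with Benjamini-Hochberg adjustment over all probes, as for the p-values that follow), and Fundc2 rose by 2.18 ± 0.35, 4.55-fold (adjusted p = 0.0036). Both held under each of 20 alternatives. Gpr158 rose by 1.35 ± 0.27, 2.55-fold (adjusted p = 0.00689); the call was lost without CS replicate 1 (adjusted p = 0.051) and with the normexp model (0.38 log2, adjusted p = 0.20). The 2 probes of C2cd2l, which disagree between the treatments on the percentile scale, both rose. The first rose by 1.22 ± 0.36 (adjusted p = 0.0273) and the second by 1.85 ± 0.46 (adjusted p = 0.0145). For the second this was at least 3.54-fold, since naive arrays gave no signal well above background. Neither C2cd2l call held when single arrays were left out: the first lost it without naive replicate 2, CS replicate 1 or CS replicate 2 (adjusted p = 0.131, 0.147 and 0.0641) and the second without naive replicate 1 or CS replicate 1 (adjusted p = 0.0723 and 0.101). With the normexp model both turned, to -0.09 and -0.51.

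Among the genes brighter after MSCs, Ptprv fell most with smoke, by 4.08 ± 0.57 log2 or 16.9-fold (adjusted p = 0.00267). It was the only one of these 4 genes lower in smoke on each scaling, at -1.11 with the spike-in controls (adjusted p = 0.0984). Suv39h2 fell by 2.93 ± 0.45, 7.60-fold (adjusted p = 0.00319), but differed by 0.04 with the spike-in controls (adjusted p = 0.952), where its groups overlap. Slc17a6 and Rnf43, which passed the filter only through the MSC group, rest on signals near background here. Slc17a6 passed the test at -2.71 ± 0.73 log2 (adjusted p = 0.0201), against 0.25 with the spike-in controls (adjusted p = 0.707); 1 of 2 naive arrays and no smoke array were well above background, and the signals before scaling overlapped, at 11.7 and 12.7 in naive and 12.7 and 11.5 in smoke. Rnf43 passed at -1.74 ± 0.47 (adjusted p = 0.0205) and turned to 1.22 with the spike-in controls (adjusted p = 0.0583). It was well above background on 1 of 2 arrays in each group, and its signals before scaling were higher in smoke, 30.5 and 20.7 against 13.6 and 12.4. The calls of Slc17a6 and Rnf43 were also lost with quantile normalization (adjusted p = 0.0815 and 0.212), with cyclic loess (adjusted p = 0.0642 and 0.104) and without naive replicate 2, CS replicate 1 or CS replicate 2.

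Set against smoke and against naive, the treated arrays share samples with the comparison that chose the genes, so these differences are given without tests, and the comparisons share their control arrays. After EVs, Vav3 was 2.34 log2 below smoke and 0.24 above naive, Fundc2 1.80 below and 0.39 above, Gpr158 1.20 below and 0.15 above, and the first C2cd2l probe 0.78 below and 0.43 above. Gpm6a lay within 0.04 of smoke and 0.82 above naive. With the spike-in controls Gpm6a stood at -2.52 from smoke, without overlap, and at 1.30 from naive, with overlap. The median of all probes stood at -1.98 and 0.43 on that scale. On the percentile scale the EV lungs thus sat nearer to naive than to smoke in these 5 genes, except for Gpm6a. After MSCs the same genes, C2cd2l by its first probe, were 3.60 (Gpm6a) to 5.05 (Fundc2) log2 below smoke. They were 2.30 (Vav3) to 3.52 (Gpr158) below naive. The second C2cd2l probe was 1.39 below smoke and 0.46 above naive after MSCs, where it overlapped the naive arrays and stood at -0.59 with the spike-in controls. Against the same floor, Vav3 was at least 20.2-fold and Fundc2 at least 19.8-fold lower after MSCs than in smoke. Below naive they were at least 3.37-fold and 4.36-fold lower.

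After MSCs the other set lay above both smoke and naive; after EVs it lay between them, apart from Slc17a6, which overlapped smoke. After EVs, Ptprv was 3.04 log2 above smoke and 1.04 below naive, and Suv39h2 1.42 above and 1.51 below. Slc17a6 was 1.87 below naive, and Rnf43 0.91 above smoke and 0.84 below naive. After MSCs, Ptprv was 6.06 above smoke and 1.99 above naive, Suv39h2 4.95 and 2.03, Rnf43 3.91 and 2.17, and Slc17a6 4.18 and 1.47. With the spike-in controls the MSC differences from naive were 0.97 for Suv39h2, 0.93 for Ptprv, 1.11 for Rnf43 and 0.42 for Slc17a6, where Slc17a6 groups overlapped; from smoke, Ptprv stood at 2.04, Suv39h2 at 0.93, Slc17a6 at 0.16 and Rnf43 at -0.11. After EVs the same scaling put Suv39h2 (-1.06), Rnf43 (-1.58) and Slc17a6 (-1.64) below smoke. Groups did not overlap for 82.2% of all probes in EVs against smoke and 80.1% in MSCs against smoke, against 37.2% and 49.0% for EVs and MSCs against naive.

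Partners of the 9 genes were taken from 9 lists of 217 genes, of which 195 are on the array and 165 were tested by their brightest probe. In EVs against MSCs, 3 passed the test as higher after EVs and 8 as lower, against 1.68% and 3.24% of the 12729 named genes tested. Higher were Nbr1, an autophagy cargo receptor (1.37 ± 0.31 log2, adjusted p = 0.0476), Sacm1l, a phosphoinositide phosphatase (1.26 ± 0.27, adjusted p = 0.0442), and Slc1a1, a glutamate transporter of the plasma membrane (1.60 ± 0.35, adjusted p = 0.0455). Lower were the Wnt adaptor Dvl3 (-2.22) and the Wnt agonist Rspo4 (-1.59), the nucleotide transporter Slc17a9 (-1.87), the phosphatase Ptprq (-1.55), the Vav adaptor Lcp2 (-1.47), the glutamate receptor Gria1 (-1.37) and the class C receptors Gabbr2 (-1.28) and Gprc5c (-1.27), with adjusted p from 0.0395 to 0.0487. With the spike-in scaling all 3 stayed higher, and none of the 8 was lower with a call; Gprc5c, Gabbr2, Lcp2 and Gria1 turned to 0.06 to 0.27. Over all 165 partners that scaling called 79 higher and 0 lower, and the normexp model 7 higher and 60 lower. In the fit of these 2 groups only, 0 partners were called. No partner was called when any smoke, EV or MSC array was left out, and 6 were when a naive array was.

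Close paralogs, looked at after values had been seen, did not pass the test between treatments. Vav1 and Vav2, the other Vav exchange factors, differed by 0.48 and 0.55 log2 in EVs minus MSCs (adjusted p = 0.443 and 0.311). Gpm6b differed by -0.65 (adjusted p = 0.158), C2cd2 by -0.37 (adjusted p = 0.536) and Suv39h1 by -0.50 (adjusted p = 0.236). Fundc1 differed by -0.08 (adjusted p = 0.939), on signals near background: 1 of 2 EV arrays and 0 of 2 MSC arrays were well above it. Missing the threshold does not show these to be equal.

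With smoke, 21 partners rose and 48 fell against naive, next to 14.8% and 28.5% of the named genes tested; the median partner stood at -0.42 and the median named gene at -0.38. With the spike-in scaling 150 of the 165 were higher and 0 lower, so the directions below hold for the percentile scale. Around Vav3, 6 of 22 rose and 2 fell, with Vav1 (1.60 ± 0.39, adjusted p = 0.0143), Vav2 (1.14 ± 0.34, adjusted p = 0.0294) and the kinase Syk (1.79 ± 0.48, adjusted p = 0.02) among those that rose; the kinase subunit Pik3cd fell (-2.18, adjusted p = 0.0023). With the normexp model Vav1 lost its call (0.19, adjusted p = 0.518 by limma) and Vav2 kept it (1.02, adjusted p = 0.00366). Around Gpr158, none of 18 rose and 10 fell, led by Gprc5c (-2.22, adjusted p = 0.0023), the opposite of Gpr158 itself. With the spike-in scaling 11 of the 18 were higher and none lower. The direct partner of Gpr158, Gnb5, did not pass (0.60 ± 0.49, adjusted p = 0.339). Around Gpm6a none of 11 rose and 5 fell, among them its paralog Gpm6b (-1.39, adjusted p = 0.00657) and the axon protein Nfasc (-2.75, adjusted p = 0.00396), and 8 were higher and none lower with the spike-in scaling.

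The remaining lists moved in both directions or mostly down. Around Fundc2, 5 of 23 rose, led by the mitochondrial prohibitin Phb2 (2.00, adjusted p = 0.005), and 5 fell. Around C2cd2l 2 of 17 rose, led by the calcium channel Orai1 (2.95, adjusted p = 0.00335), and 4 fell, including C2cd2 (-1.41, adjusted p = 0.0186). In the histone lysine 9 list 4 of 12 rose, led by Kdm3a (2.61, adjusted p = 0.00242), and 4 fell, including Suv39h1 (-1.06, adjusted p = 0.0151). The Wnt list had 3 of 30 higher and 10 lower, led by the R-spondin receptor Lgr4 (-1.95, adjusted p = 0.00366). None of 16 receptor phosphatases rose and 4 fell, led by Ptprq (-1.81, adjusted p = 0.00317). Of 16 synaptic genes 1 rose, the vesicle GTPase Rab3a (3.46, adjusted p = 0.00228), and 4 fell. The spike-in scaling left no partner lower with a call in any of these 6 lists. With the normexp model Orai1 (0.56), Kdm3a (0.37) and Rab3a (-0.008) lost their calls (adjusted p = 0.116, 0.271 and 0.981 by limma). Phb2 kept its call there (1.24, adjusted p = 0.000866).

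For each of the 9 genes the named genes with the most similar levels over the 8 arrays were looked up, as a description: the points share the array scaling, and the correlation is over 8 arrays in 4 groups. For Gpr158 these were Fn1, fibronectin (r = 0.993), and Enpp5 (r = 0.993), and for Vav3 they were Tjp1, a tight junction protein (r = 0.993), and Cdadc1 (r = 0.993). Fundc2 was closest to Igfbp7 and Igsf5 (r = 0.996 and 0.995), C2cd2l to Exoc2 and Cpq (r = 0.994 and 0.991) and Gpm6a to Zfp952 (r = 0.980). Their range was smaller than that of the members: Fn1 had mean levels of 1.00 in naive, 1.62 in smoke, 1.20 after EVs and -0.41 after MSCs. In the other set the closest were Vwce and Ess2 for Suv39h2 (r = 0.995 each), Tsg101 and Mrps35 for Ptprv (r = 0.999 and 0.998), Or1q1 and P2ry6 for Slc17a6 (r = 0.973 and 0.972) and Zfp385d and Pdcd1 for Rnf43 (r = 0.992 and 0.986). Ptprv had 1250 of 12493 genes above r = 0.95, against 14 for Gpm6a and 20 for Slc17a6, so its pattern is the most common of the 9 on this scale.

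Since several of the 9 are known from nerve, testis or bone, markers of those cells were summed on each array. Of 11 neuron and Schwann cell markers, 5 to 9 were well above background on an array, and Rbfox3 and Nefl on none. Their summed level was 1.36 and 1.58 after MSCs and 2.09 to 3.07 on the other 6 arrays. It was thus lowest where Gpr158 and Gpm6a were lowest, and where Slc17a6, the gene of synaptic vesicles, was highest. Of 8 testis germ cell markers 3 to 5 were well above background, with Ddx4 and Sycp3 on no array. Their summed level was 1.92 and 1.38 after MSCs, -0.45 and -0.08 after EVs, -0.15 and 0.33 in naive and -3.15 and -2.39 in smoke. On this scale the group means ran in the order of those of Suv39h2 and Ptprv, though naive and EV arrays overlapped. Before scaling the log2 of the summed signal was 9.86 and 9.38 after MSCs, and the other groups overlapped at 8.51 to 9.12. Of 6 osteoblast markers 3 to 5 were detected, Dmp1 on none, with summed levels of 0.62 to 1.64 that did not separate the groups. The part of these markers in the differences of the 9 genes was not tested.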

How the data were processed

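Lung RNA on 8 one-colour arrays was analysed. Per the file headers, array design 074036 was read with Agilent Feature Extraction 10.7.3.1. The deposited scanner tables give each spot's intensity (processed signal, median pixel and local background) with other flags of 0 or 1 for spots well above background or outliers. Per the file headers the processed signal is background-subtracted; no normalization between arrays is recorded there. Repeat spots were averaged without outliers, and log2 levels taken relative to the 75th percentile of the array's non-control spots. A probe stayed in if some group had it well above background on both arrays, which 29612 of 45598 did. Names came from a RefSeq table of GRCr8 by accession: 21215 probes matched 16667 symbols and 24383 matched none. limma 3.58.1 in R 4.3.3 fitted 4 group means over 8 arrays (4 residual degrees of freedom, prior 3.61), with Benjamini-Hochberg adjustment over all probes at 0.05; p-values are 2-sided. A fit on simulated data was tested first. Spike-in scaling used 7 of 10 E1A probes. Figures used Python 3.11.15 and matplotlib 3.10.9, and tables the data.table package 1.17.8.

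The genes, lists and tests were chosen with earlier results of these data known. Named were all 9 genes; of each list the gene with the smallest p in smoke against naive and in EVs against MSCs, and partners called in the latter up to 3 a list; and for each gene the 2 most similar by Pearson r. Syk, Gnb5 and the paralogs fall outside this rule and were named after their values were seen. The number of arrays, 2 a group, limits the precision. Alternatives were other background models, normalizations, filters, probe choices, fits and arrays left out. Some genes that this rule names are left out of the text.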

Additional observations from a re-analysis of the deposited data

Results flagged for a closer look

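Of the 10 probes of the 9 genes, 6 had EV and MSC arrays on opposite sides of both naive arrays, as did 12.3% of all 29612 probes tested. The difference between EVs and MSCs chose the genes, so this was not tested and nothing is read from the count. Relative to naive, Fundc2 stood at 0.39 log2 after EVs and -2.86 after MSCs, a gap of 3.25, and Vav3 at 0.24 and -2.30, a gap of 2.54. The other four ran the opposite way, with EVs minus MSCs at -3.53 for Suv39h2, -3.34 for Slc17a6, -3.03 for Ptprv and -3.00 for Rnf43. With the spike-in scaling Vav3 after EVs and Slc17a6 after MSCs overlapped the naive arrays.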

How the results depend on the processing

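The replicate numbers, which are slide rows, did not pair the arrays: correlations of the replicate differences between groups ran from -0.14 to 0.14. With the number as a replicate block, 0 partners (8750 probes at an unadjusted p under 0.05, 0 called by limma of all probes) were called in EVs against MSCs, against 11 partners and 1731 probes without it; the 5 and 4 calls of members with smoke were the same. The fit of 2 groups only and no filter on dim probes also gave 0 partners and 0 probes there (8213 and 9943 at an unadjusted p under 0.05). In EVs against MSCs the normexp model called 67 partners and 15269 probes, spike-in scaling 79 and 12007, no scaling 55 and 8394, the percentile over probes counted once (chosen after seeing the data) 7 and 1021; the filter on all 8 arrays called 3450 probes and the trended prior 2864. Leaving out arrays gave 0 to 6 partners and 0 to 1545 probes.

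In smoke against naive 69 partners and 13783 probes were called; the normexp model gave 110 and 21868, spike-in scaling 150 and 24854, no scaling 143 and 23669, and leaving out arrays 18 to 81 and 4841 to 15339. Of the members, 5 probes rose and 4 fell; 2 rose with the normexp model, 0 rose and 2 fell of the 2 left by the filter on all 8 arrays, and 2 fell with quantile normalization or cyclic loess, 1 with no scaling and 0 with spike-in scaling. With spike-in scaling or no scaling 6 probes rose, Gpm6a among them. Leaving out arrays gave 2 to 5 higher and 2 to 4 lower, lowest for the higher calls without CS replicate 1.

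Among differences that were tested or whose groups did not overlap, directions turned as follows; where no setting shows it by construction the cause was not tested. Spike-in scaling turned Slc17a6 (0.25), Suv39h2 (0.036) and Rnf43 (1.22) in smoke minus naive, Suv39h2 (-1.06) and Rnf43 (-1.58) in EVs minus smoke, and Rnf43 (-0.11) in MSCs minus smoke. No scaling turned Rnf43 in smoke minus naive (0.95), and Suv39h2 (-0.86) and Rnf43 (-1.37) in EVs minus smoke. The normexp model, whose offset compresses dim signals, turned C2cd2l (-0.090 and -0.51) and Gpm6a (-0.51) in smoke minus naive; Gpr158 (-0.10), C2cd2l (-0.12), Fundc2 (-0.083), Gpm6a (-0.044) and Vav3 (-0.28) in EVs minus MSCs; and the second C2cd2l probe in EVs minus smoke (0.32). It also turned C2cd2l (1.17 and 0.12) and Gpm6a (0.62) in MSCs minus smoke; the second C2cd2l probe (-0.19), Fundc2 (-0.011) and Vav3 (-0.13) in EVs minus naive; and C2cd2l (0.026), Fundc2 (0.072), Gpm6a (0.11) and Vav3 (0.15) in MSCs minus naive. Differences whose groups overlapped turned too: Slc17a6 in EVs minus smoke from 0.84 to -1.64 with spike-in scaling and -1.44 with no scaling, and the second C2cd2l probe from 0.46 to -0.59 and -0.39 in MSCs minus naive and from 0.20 to -0.86 in EVs minus MSCs with the normexp model. Other such turns ended within 0.1 of 0, or were of the second C2cd2l probe (-0.30, without MSC replicate 2), Gpm6a (0.57 with the normexp model, 0.63 and 0.20 with an array left out) in EVs minus smoke and Gpr158 (-0.15 with the normexp model) in EVs minus naive. Having 2 arrays a group and signals near background limits all these values.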
